A study of Mus musculus with 4 samples.

Results

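Macrophages and complement C1q were followed in sorted cells of the main olfactory epithelium (MOE) through 10 genes taken by name from the 24421 genes of the deposited expression values. The genes were the C1q chain genes *C1qa*, *C1qb*, and *C1qc*, the surface receptor genes *Csf1r*, *Cx3cr1*, and *Adgre1*, the signaling adaptor genes *Tyrobp* and *Fcer1g*, and the intracellular markers *Cd68* and *Aif1*. No measured value was used to choose them, although earlier results of these libraries were known when they were listed. All 10 genes were in the table and were above 0 in all 4 libraries.

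The 4 RNA-seq libraries came from 2 transgenic mouse lines, with 1 library for each group. The labels give the strain as C57BL/6 and the methods C57BL/6J eggs, whereas the study's reporting form describes its mouse lines in general as being of a mixed background that includes another strain. In the TAAR enhancer 1-GFP line, a PiggyBac transgene places TAAR enhancer 1, from the gene cluster of the trace amine-associated receptors (TAARs), before the Hsp68 minimal promoter and a green fluorescent protein. The TAAR enhancer 2-tdTomato line carries TAAR enhancer 2, the same minimal promoter, and the red protein tdTomato. All groups carry a transgene, so no library from wild-type mice serves as a control, and each line descends from 1 founder. The MOE was dissociated with papain and sorted by fluorescence into GFP-negative, GFP-positive, tdTomato-negative, and tdTomato-positive cells. The labels call the mice adult, whereas the reporting form gives juvenile ages, with a wider range for the tdTomato line. The methods name no step to remove leukocytes, and their text does not say whether gates other than the reporter were used. How many mice entered a library was not given in the sources used here. Values are TPM, transcript levels corrected for length that add up to the same total in each library.

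Macrophages are resident phagocytes that engulf dying cells and debris. In the olfactory epithelium, where sensory neurons are replaced throughout life, they take up the remains of dying olfactory sensory neurons (OSNs). C1q is the recognition part of the first complement component. It binds antibody complexes, dying cells, and pathogens and starts the classical cascade, and unlike most complement proteins it is made largely by macrophages and related cells rather than by the liver. *Csf1r* encodes the receptor for the growth factor CSF1, on which most macrophages depend, *Cx3cr1* the receptor for fractalkine, and *Adgre1* the F4/80 antigen. *Tyrobp* (DAP12) and *Fcer1g* (the FcR gamma chain) encode adaptors that carry immunoreceptor tyrosine-based activation motifs (ITAMs) and signal for receptors without a signaling tail of their own. These adaptors are also used by neutrophils, natural killer (NK) cells, and other leukocytes. *Cd68* encodes a lysosomal membrane protein and *Aif1* the actin-binding protein IBA1.

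The C1q chain genes are neighbors. By the annotation of GENCODE M21 for GRCm38 (also called mm10), they occupy 18675 bases of chromosome 4, from 136880129 to 136898803, all on the minus strand. *C1qb* runs from 136880129 to 136886187, *C1qc* from 136889804 to 136893065, and *C1qa* from 136895917 to 136898803, and the intergenic gaps are 3616 and 2851 bases. Promoter sequences from RefSeq (GRCm38.p6) were held for 6 of the 10 genes, which were *C1qb*, *C1qc*, *Fcer1g*, *Cx3cr1*, *Cd68*, and *Aif1*. The promoters of *C1qb* and *C1qc* are printed because these genes differed alike in the GFP line, though less so in the tdTomato line. That of *Fcer1g* is printed beside them because its values took another course. Each runs 5′ to 3′ on the minus strand and holds the bases within 250 of the RefSeq start that lie before the gene in both annotations. The RefSeq starts are at 136886200, 136892914, and 171234349, the latter 2 inside the GENCODE genes, so that 151 bases of the *C1qc* window and 16 of the *Fcer1g* window are left out. Capitals mark GAGGAA or its reverse complement TTCCTC, the core of the motif bound by PU.1, the macrophage transcription factor encoded by *Spi1*. *C1qb* is chr4:136886201-136886450, *C1qc* is chr4:136893066-136893164, and *Fcer1g* is chr1:171234366-171234599.
C1qb: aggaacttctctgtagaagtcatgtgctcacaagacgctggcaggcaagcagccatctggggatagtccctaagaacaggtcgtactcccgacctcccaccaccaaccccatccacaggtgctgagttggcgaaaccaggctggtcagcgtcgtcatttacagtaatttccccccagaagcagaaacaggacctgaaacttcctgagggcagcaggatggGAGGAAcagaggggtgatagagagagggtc
C1qc: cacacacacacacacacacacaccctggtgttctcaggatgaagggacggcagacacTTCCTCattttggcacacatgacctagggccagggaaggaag
Fcer1g: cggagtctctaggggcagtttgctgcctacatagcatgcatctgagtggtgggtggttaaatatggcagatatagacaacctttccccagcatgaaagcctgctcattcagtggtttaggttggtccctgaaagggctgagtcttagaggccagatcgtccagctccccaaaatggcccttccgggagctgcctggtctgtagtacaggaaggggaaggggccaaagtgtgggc

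The core lay 30 bases before the RefSeq start of *C1qb* and 193 bases before that of *C1qc*, while the *Fcer1g* window held none. The printed promoters were picked by the values of their genes and differ in length (250, 99, and 234 bases). Nothing is therefore read from this contrast. Over the whole RefSeq windows, 250 bases before to 50 after the start and read on both strands, 4 of the 6 genes held the core (*C1qb*, *C1qc*, *Cd68*, and *Aif1*), as did 28.3% of 32851 mouse promoters. The RUNX motif TGTGGT was found in 3 of the 6 (*Fcer1g*, *C1qc*, and *Cx3cr1*) and in 16.8% of all promoters. The AP-1 motif TGAGTCA was found in 1 of the 6 (*Cd68*) and in 5.20% of all promoters. In these 6 windows no match of one motif overlapped a match of another. A match describes the letters only, and no binding was measured in these libraries. *Spi1* itself had 55.3 TPM in GFP-negative, 1.58 in GFP-positive, 42.9 in tdTomato-negative, and 0.222 in tdTomato-positive cells.

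All 10 genes were lower by at least 2-fold in GFP-positive than in GFP-negative cells, as were 45.0% of all genes compared, and 7 of 10 were lower by at least 2-fold in tdTomato-positive than in tdTomato-negative cells, as were 23.2% of all genes compared. The adaptors differed most in both lines. As deposited, the C1q chains differed much less in the tdTomato line than in the GFP line. With the libraries rescaled to equal levels of mature OSN markers, they stayed within 2-fold in both lines. Because each group is a single library, these differences have no replicate error and were not tested. In sorted bulk cells, fewer macrophages and less RNA per macrophage cannot be told apart. Fold changes were taken as the log2 ratio of TPM + 1, which understates differences of genes with few TPM, and ratios of plain TPM are given as factors for most values within a line.

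**Figure D1:**
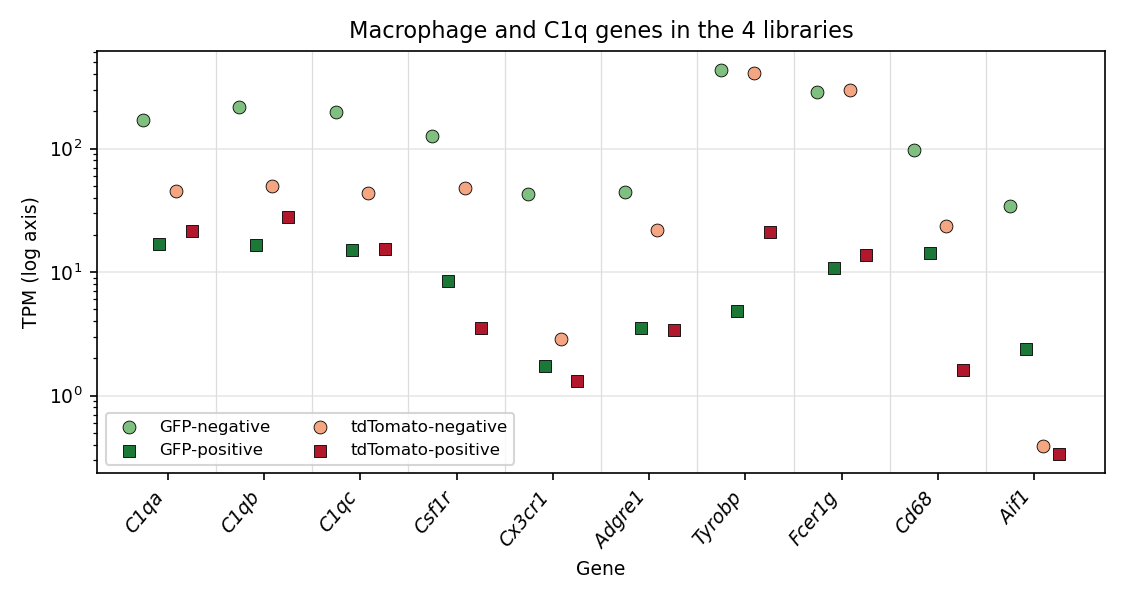
TPM on a log axis of each of the 10 genes in the 4 libraries, with circles for reporter-negative and squares for reporter-positive cells and 1 point for each library. *Tyrobp* and *Fcer1g* have nearly the same level in both reporter-negative libraries, whereas the C1q chains are about 4 times lower in tdTomato-negative than in GFP-negative cells.

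The C1q chains had similar levels within each library. *C1qa*, which encodes the A chain of the C1q subunit, had 170.3 TPM in GFP-negative, 16.7 in GFP-positive, 45.1 in tdTomato-negative, and 21.7 in tdTomato-positive cells. *C1qb*, the B chain gene, had 216.9, 16.7, 49.6, and 27.7 TPM in the same order. *C1qc*, the C chain gene, had 197.4, 15.1, 43.4, and 15.4 TPM. For each chain GFP-negative cells were highest by a wide margin, tdTomato-negative cells were second, and both reporter-positive libraries were lowest. In the GFP line the TPM of *C1qa* was 10.2-fold lower in the positive cells, that of *C1qb* 13.0-fold, and that of *C1qc* 13.0-fold (log2 fold changes -3.27, -3.62, and -3.62). In the tdTomato line the factors were 2.08, 1.79, and 2.83 (log2 fold changes -1.02, -0.82, and -1.44), so that *C1qb* stayed within 2-fold. The C1q chains summed to 584.6 TPM in GFP-negative and 48.6 in GFP-positive cells, a factor of 12.04, and to 138.2 TPM in tdTomato-negative and 64.7 in tdTomato-positive cells, a factor of 2.14. With the libraries rescaled to equal levels of 12 mature OSN markers, the log2 ratios of these sums were -0.52 and -0.091.

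The C1q protein is built from equal numbers of the A, B, and C chains. The transcripts of the chains were close to equal in 3 of the 4 libraries. *C1qa*, *C1qb*, and *C1qc* made up 29.1%, 37.1%, and 33.8% of the summed C1q TPM in GFP-negative cells and 34.4%, 34.4%, and 31.2% in GFP-positive cells. In tdTomato-negative cells the shares were 32.6%, 35.9%, and 31.4%. tdTomato-positive cells stood apart, with 33.5%, 42.7%, and 23.7%. The highest chain there was 1.80 times the lowest, against 1.27 in GFP-negative, 1.105 in GFP-positive, and 1.14 in tdTomato-negative cells. Such ratios within a library do not depend on how the libraries are scaled to each other.

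The surface receptors summed to fewer TPM than the C1q chains in each library, although *Csf1r* alone was above *C1qa* and *C1qc* in tdTomato-negative cells. *Csf1r* (chromosome 18, 61100598 to 61132149) had 127.2 TPM in GFP-negative, 8.46 in GFP-positive, 47.7 in tdTomato-negative, and 3.51 in tdTomato-positive cells. As deposited, it was lower in the positive cells of both lines by a similar factor, 15.0 in the GFP line and 13.6 in the tdTomato line (log2 fold changes -3.76 and -3.43). With the libraries rescaled to equal levels of 12 mature OSN markers, these were -0.82 and -2.44. *Cx3cr1* (chromosome 9, 119901616 to 120069879) had 43.1, 1.73, 2.88, and 1.32 TPM. Its level was high in GFP-negative cells alone, and the factor was 24.9 in the GFP line and 2.18 in the tdTomato line, where the log2 fold change of -0.74 was within 2-fold. *Adgre1* (chromosome 17, 57358691 to 57483527) had 44.4, 3.50, 21.7, and 3.37 TPM, with the positive libraries at nearly equal levels. Its factors were 12.7 in the GFP line and 6.44 in the tdTomato line (log2 fold changes -3.33 and -2.38). Of the exon bases of *Csf1r*, 15.1% are shared with *Hmgxb3* on the opposite strand. The strand setting of the quantification was not given in the sources used here, so reads from these bases could belong to either gene.

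The ITAM adaptors were the most abundant of the 10 genes in both reporter-negative libraries. *Tyrobp* (chromosome 7, 30413760 to 30417585) had 432.8 TPM in GFP-negative and 4.88 in GFP-positive cells, 88.7-fold lower. It had 409.1 TPM in tdTomato-negative and 21.0 in tdTomato-positive cells, 19.5-fold lower. The log2 fold changes were -6.20 and -4.22, and *Tyrobp* ranked above 98.2% of the genes over 0 TPM in GFP-negative cells and above 33.8% in GFP-positive cells. *Fcer1g* (chromosome 1, 171229572 to 171234365) had 284.4, 10.9, 298.6, and 13.7 TPM across the 4 libraries in the same order. As deposited, it was lower by about the same factor in both lines, 26.1 and 21.7 (log2 fold changes -4.59 and -4.35). Under the same rescaling to OSN markers, its log2 fold changes were -1.62 and -3.34.

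The intracellular markers differed between the lines. *Cd68* (chromosome 11, 69664213 to 69666153) had 97.2 TPM in GFP-negative, 14.2 in GFP-positive, 23.4 in tdTomato-negative, and 1.61 in tdTomato-positive cells. Its factor was the smallest of the 10 genes in the GFP line, 6.85, and was 14.5 in the tdTomato line (log2 fold changes -2.69 and -3.22). *Aif1* (chromosome 17, 35170991 to 35176068) had 34.5, 2.40, 0.391, and 0.338 TPM. It was present in the GFP line, with a factor of 14.4 and a log2 fold change of -3.38, and was under 1 TPM in both tdTomato libraries, so that its log2 fold change of -0.06 there describes a gene near the lower end of the values.

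In the GFP line, all 10 genes were at least 2-fold lower in the positive cells and 0 were higher. Among the 16173 genes that reached 1 TPM on either side of the sort, 45.0% were at least 2-fold lower and 14.2% at least 2-fold higher, so lower values were common in this comparison. The median log2 fold change was -3.62 over the 10 genes and -0.88 over all genes. The 10 most abundant genes held 31.5% of the TPM of GFP-positive cells, against 5.72% on the negative side, and 9 Bowman gland markers summed to 122054 TPM in the former, which leaves less of the fixed total for other transcripts. When the libraries were rescaled by the median ratio over 11943 genes, the median gene shifted by 0.81 on the log2 scale and the background became 21.7% lower and 21.4% higher. The count of 10 lower genes was the same under that scaling. When they were rescaled to equal levels of 12 mature OSN markers, 3 of the 10 were at least 2-fold lower and 0 were higher, against 7.81% and 76.9% of all genes, and *Cd68* changed sign, with a log2 fold change of 0.29.

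In the tdTomato line, 7 of the 10 genes were at least 2-fold lower in the positive cells, 0 were higher, and *C1qb*, *Cx3cr1*, and *Aif1* were within 2-fold. The background was 23.2% lower and 17.2% higher among 15777 genes. The median over the 10 genes was -1.91, that over all genes was -0.23, and that over the 7 genes other than C1q was -3.22. *Aif1* was kept here although under 1 TPM on both sides, and without it the median over the rest of the 10 was -2.38. The median-ratio scaling left 6 genes lower and 0 higher, against 19.9% and 18.5% of all genes. The scaling to OSN markers left 5 lower and 0 higher, against 12.7% and 36.8%, and turned *C1qb* and *Aif1* to log2 fold changes of 0.15 each. As deposited, 9 of the 10 genes, all but *Cd68*, were less reduced in the tdTomato line than in the GFP line, and 70.2% of 16917 genes were likewise. The count was 7 under the median-ratio scaling, against 49.4% of all genes, with *Csf1r* and *Fcer1g* as further exceptions. It was 6 under the OSN scaling, against 14.5%, with *Adgre1* an exception too. *Aif1* (0.391 TPM) and *Cx3cr1* (2.88 TPM) were too low in tdTomato-negative cells to show a large fall. This contrast between lines was not tested.

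**Figure D2:**
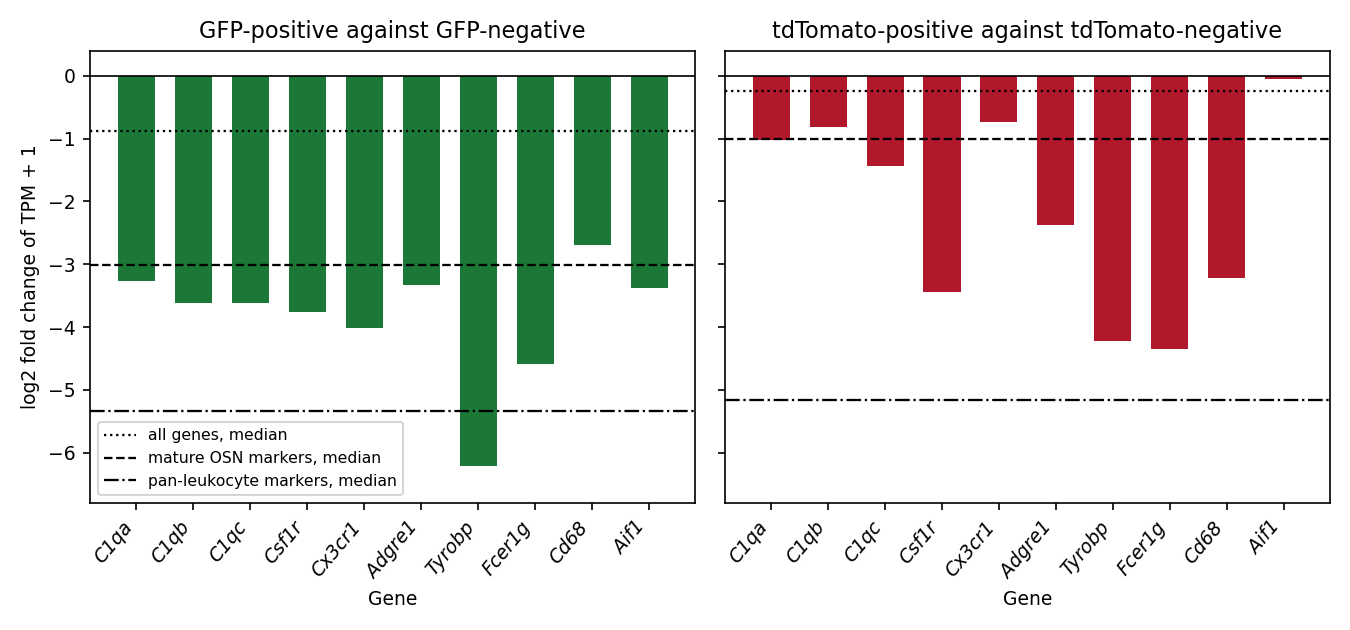
Log2 fold change of TPM + 1 of each of the 10 genes in reporter-positive over reporter-negative cells, for the GFP line (left) and the tdTomato line (right), 1 pair of libraries each, with lines for the medians of all genes, of 12 mature OSN markers, and of 10 pan-leukocyte markers. The C1q chains lie near the mature OSN median in both panels, at -3.02 in the GFP line and -1.002 in the tdTomato line, and *Tyrobp* and *Fcer1g* lie closer to the pan-leukocyte medians of -5.34 and -5.16.

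Markers of other cells moved with these genes. The 10 pan-leukocyte markers, among them *Ptprc* (CD45), were all at least 2-fold lower in the positive cells of both lines, against 45.0% and 23.2% of all genes, with medians of -5.34 and -5.16. Their summed TPM was 2711 in GFP-negative, 134.6 in GFP-positive, 2206 in tdTomato-negative, and 101.4 in tdTomato-positive cells, and none was at 0. *Cd52* was the highest of them in both negative libraries (661.1 and 545.8 TPM) and *Lcp1* in both positive libraries (65.3 and 56.0 TPM). Against the mean change of these markers, -4.77 in the GFP line and -4.94 in the tdTomato line, 9 of the 10 genes were less reduced in the GFP line and all 10 in the tdTomato line, but so were 98.6% and 98.0% of all genes compared, and nothing is read from these counts. *C1qb* was higher than that mean by 1.15 and 4.12 on the log2 scale, *C1qa* by 1.5 and 3.92, and *C1qc* by 1.15 and 3.50. *Fcer1g* was higher by only 0.19 and 0.60, and *Tyrobp* was at -1.43 and 0.72. Of the 12 mature OSN markers, 12 were at least 2-fold lower in the GFP line and 6 in the tdTomato line, against the same 45.0% and 23.2%, with medians of -3.02 and -1.002. The C1q medians of -3.62 and -1.02 were nearer to these than to the pan-leukocyte medians, as were *Csf1r*, *Cx3cr1*, *Adgre1*, *Cd68*, and *Aif1* in the GFP line and *Cx3cr1*, *Adgre1*, and *Aif1* in the tdTomato line. Of all genes compared, 4.17% and 12.1% were below the medians of the 10 genes (-3.62 and -1.91). Most genes were thus nearer to the OSN medians too, and nothing is read from this. In the tdTomato line *Aif1* (0.391 and 0.338 TPM) and *Cx3cr1* (2.88 and 1.32 TPM) were too low to reach the pan-leukocyte median. What part OSNs or other leukocytes had in the C1q values was not tested.

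The makeup of the 10 genes' transcripts was not the same on both sides of the sort. C1q chains made up 35.5% of the summed TPM of the 10 genes in GFP-negative and 51.3% in GFP-positive cells, and 14.7% in tdTomato-negative and 59.0% in tdTomato-positive cells. The ITAM adaptors went the other way, from 43.5% to 16.7% in the GFP line and from 75.1% to 31.7% in the tdTomato line. For each unit of *Tyrobp* there were 1.35 units of summed C1q in GFP-negative, 9.95 in GFP-positive, 0.338 in tdTomato-negative, and 3.08 in tdTomato-positive cells. The ratio to *Csf1r*, a gene more restricted to macrophages, was 4.59 and 5.74 in the GFP line and 2.90 and 18.4 in the tdTomato line. C1q was therefore the largest group of the 10 genes in both positive libraries and the adaptors were the largest group in both negative libraries. *Tyrobp* was 1.52, 0.449, 1.37, and 1.53 times *Fcer1g* in GFP-negative, GFP-positive, tdTomato-negative, and tdTomato-positive cells, so GFP-positive cells alone had less *Tyrobp* than *Fcer1g*.

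**Figure D3:**
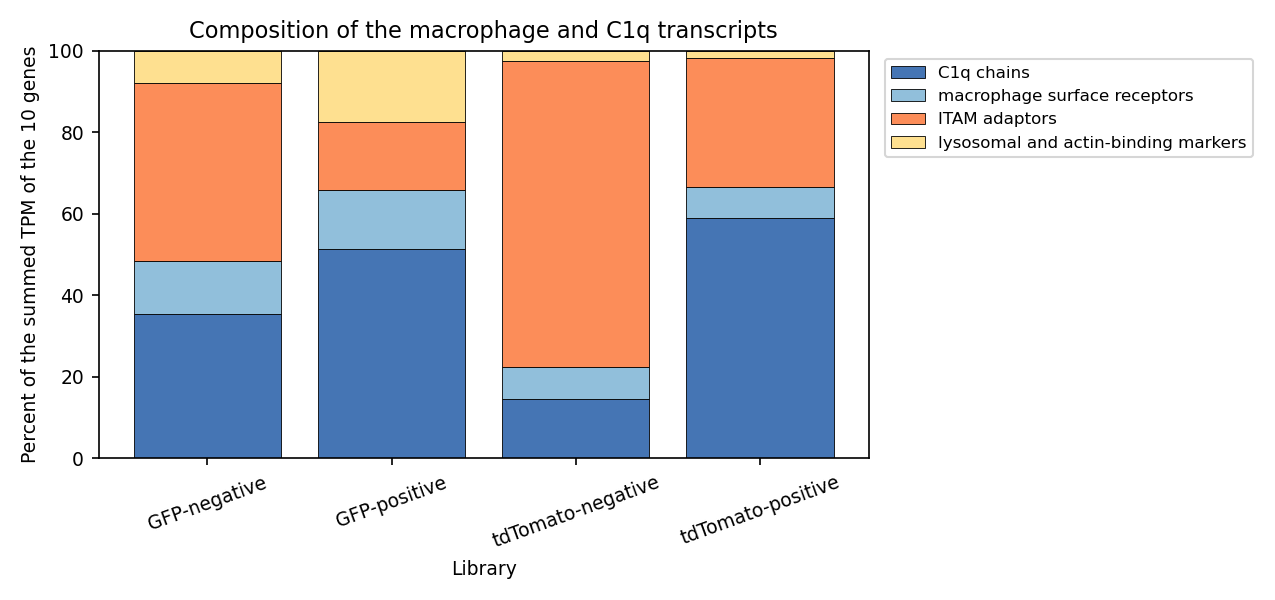
Percent of the summed TPM of the 10 genes held by the C1q chains, the surface receptors (*Csf1r*, *Cx3cr1*, *Adgre1*), the ITAM adaptors (*Tyrobp*, *Fcer1g*), and the lysosomal and actin-binding markers (*Cd68*, *Aif1*) in each of the 4 libraries. The C1q share is 51.3% and 59.0% in the positive libraries, and 35.5% and 14.7% in the negative ones.

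The reporter-negative libraries hold the unlabeled cells of each line, and 9 of the 10 genes were lower in tdTomato-negative than in GFP-negative cells. At the 2-fold limit, 7 were lower and 0 were higher, against 12.4% and 11.4% of 15899 genes, and the median was -1.95 against 0.05 for all genes. The genes fell into distinct sets. *Tyrobp* and *Fcer1g* had log2 fold changes of -0.08 and 0.07, almost no difference. *Adgre1*, at -0.999, was just under the 2-fold limit, and *Csf1r* was at -1.40. *C1qa*, *C1qb*, *C1qc*, and *Cd68* lay between -1.89 and -2.16, about 4-fold lower, and *Cx3cr1* and *Aif1* were at -3.51 and -4.67, with plain TPM ratios of 15.0 and 88.1. Enhancer, reporter, founder, and sort all differ between these libraries and cannot be told apart, and whether the ages differed was not settled.

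**Figure D4:**
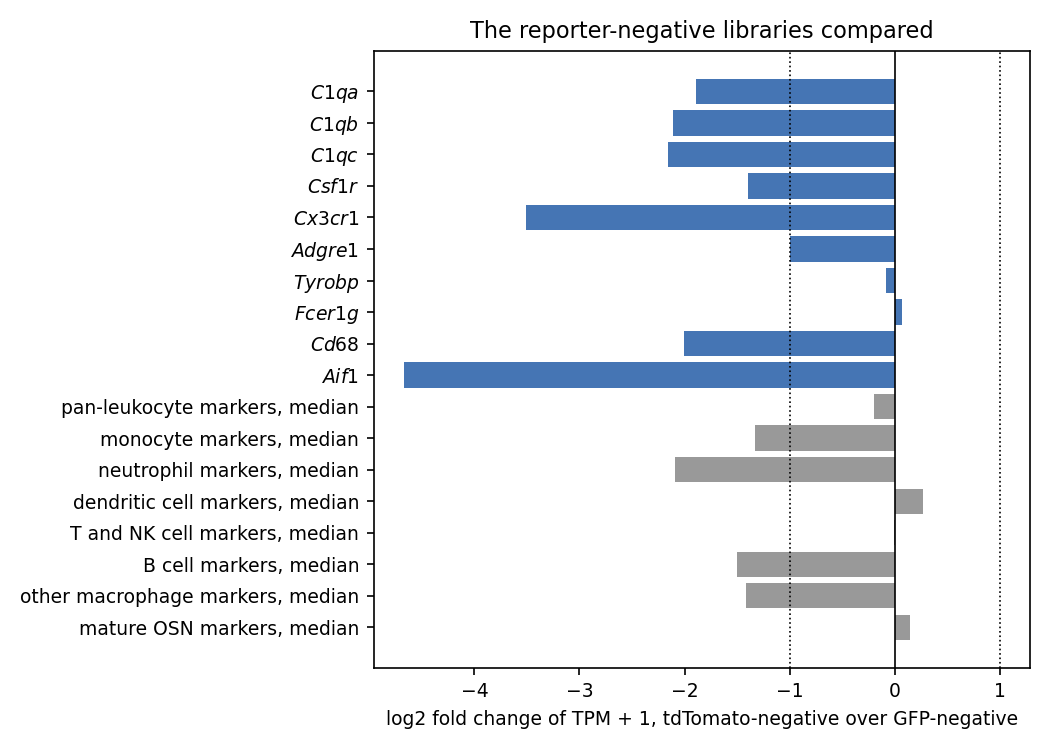
Log2 fold change of TPM + 1 in tdTomato-negative over GFP-negative cells for the 10 genes (blue) and the medians of 8 marker lists (gray), 1 library for each group, with dotted lines at 2-fold. *Tyrobp*, *Fcer1g*, and the pan-leukocyte, dendritic cell, T and NK cell, and mature OSN medians lie near 0, and the C1q chains lie near -2 with the neutrophil median.

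The marker lists differed in this comparison too. The pan-leukocyte median was -0.19, that of T and NK cell markers -0.01, and that of dendritic cell markers 0.27, so these medians were close to 0. The median of 7 monocyte markers was -1.33 and that of 11 neutrophil markers -2.09, which summed to 10094 TPM in GFP-negative and 2679 in tdTomato-negative cells. Of the neutrophil markers, 8 were at least 2-fold lower and 2 were higher, against 12.4% and 11.4% of all genes. The higher genes were *Csf3r* (61.6 and 186.2 TPM) and *Cxcr2* (26.4 and 70.3 TPM). The median of 7 B cell markers, 5 of them lower against the same 12.4%, was -1.50, and that of 5 mast cell markers was -1.05. Among 19 other macrophage markers with at least 1 TPM, 13 were lower in tdTomato-negative cells and 1 was higher (*Cd14*), against 12.4% and 11.4% of all genes. Their median was -1.41. *Fcgr1*, the high-affinity IgG receptor CD64, had 29.4 TPM in GFP-negative and 0.0264 in tdTomato-negative cells, and *Mrc1*, the mannose receptor, had 27.3 and 5.74. *Apoe*, the lipid carrier, had 2119 and 541.6 TPM. *P2ry12* and *Tmem119*, known from microglia, had 25.5 and 18.7 TPM in GFP-negative and 8.96 and 4.58 in tdTomato-negative cells. Lists of cells other than leukocytes had medians of -0.82 (olfactory ensheathing), -0.77 (endothelial and stromal), 0.95 (horizontal basal), and 0.86 (sustentacular). *Cd163* and *Lyve1*, markers of some tissue macrophages, were under 1 TPM in all 4 libraries.

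The C1q chains were close in level in the reporter-positive libraries. Between tdTomato-positive and GFP-positive cells, 3 of the 10 genes were at least 2-fold lower (*Csf1r*, *Cd68*, and *Aif1*), 1 was higher (*Tyrobp*, log2 fold change 1.90), and 6 were within 2-fold. Over 15121 genes 11.7% were lower and 34.9% were higher, and the medians were -0.01 for the 10 genes and 0.69 for all genes. The C1q sum was 48.6 TPM in one and 64.7 in the other, although it differed 4.23-fold between the negative libraries. Comparisons within a line and between lines share libraries and are not independent. The median-ratio scaling shifted the median gene by -0.71 and gave *C1qa*, *C1qb*, *C1qc*, and *Fcer1g* negative signs, with the background at 19.0% lower and 13.1% higher. Under the scaling to OSN markers 9 of the 10 genes were lower, 0 were higher, and *Tyrobp* was at -0.14, against 68.8% lower and 3.10% higher among all genes.

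Lower values in positive cells cannot check the label of macrophage genes, because T and NK cell markers were lower too (medians -5.07 and -4.96). The 10 genes were set beside 21 other macrophage markers. In the GFP line 17 of 19 with at least 1 TPM were at least 2-fold lower in the positive cells and 0 were higher, with a median of -2.91, against 45.0% and 14.2% of all genes. In the tdTomato line 12 of 17 were lower and 2 were higher (*Lyz2* and *Folr2*), against 23.2% and 17.2%, and the median was -1.43. *Ctss*, the lysosomal protease cathepsin S, was close to *Csf1r* with log2 fold changes of -4.09 and -4.02, and *Mpeg1*, the pore-forming perforin-2, was at -3.90 and -3.73. *Lyz2* (lysozyme) had 1581 TPM in GFP-negative, 2043 in GFP-positive, 706.7 in tdTomato-negative, and 1707 in tdTomato-positive cells, and *Cd14* (a co-receptor for bacterial lipopolysaccharide) had 56.5, 81.7, 158.6, and 87.1. *Lyz2* thus did not follow the 10 genes in either line. *Cd14* did not in the GFP line (log2 fold change 0.53), but was at -0.86 in the tdTomato line. *Apoe* was the highest gene of the list in GFP-negative cells and *Lyz2* in the other libraries, and 0, 2, 3, and 5 of the 21 genes were at 0 in GFP-negative, GFP-positive, tdTomato-negative, and tdTomato-positive cells.

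The other complement genes differed in both directions. Of 14 genes of the classical cascade, its receptors, and its regulators, 4 were at least 2-fold lower and 4 were higher in the GFP line (45.0% and 14.2% of all genes), with a median of 0.32. In the tdTomato line 5 were lower and 2 were higher (23.2% and 17.2% of all genes), with a median of -0.18. Under the median-ratio scaling the counts were 4 lower and 8 higher in the GFP line (21.7% and 21.4% of all genes) and 3 of each in the tdTomato line (19.9% and 18.5%). Under the scaling to OSN markers they were 2 and 10 (7.81% and 76.9%), and 3 and 6 (12.7% and 36.8%), so the counts of higher genes lay near the background there. The genes lower in both lines were *Itgam* (log2 fold changes -4.92 and -4.63) and *Itgb2* (-4.94 and -4.88), the subunits of complement receptor 3, and the anaphylatoxin receptors *C5ar1* (-2.96 and -3.20) and *C3ar1* (-2.41 and -1.001). *C3ar1* was at the limit in the tdTomato line and was within 2-fold there under each rescaling (-0.22 to -0.98). These are leukocyte receptors. *C1ra* and *C1s1*, whose proteases join C1q to form the first component, were at 1.09 and 1.14 in the GFP line and at 0.24 and -1.09 in the tdTomato line. *C2*, the next protease of the cascade, had 1.66, 17.4, 9.45, and 48.7 TPM across the 4 libraries, higher in the positive cells of both lines. *C3*, the central component, had 43.4, 59.4, 37.1, and 40.8 TPM, and *Serping1*, the C1 inhibitor, had 26.4, 26.0, 27.9, and 30.6 TPM. Their levels stayed within 2-fold across the sort in each line. *Cd55*, a regulator on the cell surface, was the highest gene of the list in every library, with 193.1, 220.9, 188.8, and 440.4 TPM, and no gene of the list was at 0.

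The ITAM adaptors have partner receptors and downstream enzymes, and these were lower as well. Of 14 such genes, 13 of 13 with at least 1 TPM were at least 2-fold lower in the GFP line (median -3.45), against 45.0% of all genes, and 12 of 12 in the tdTomato line (median -3.27), against 23.2%. Under the OSN scaling these counts were 10 of 13, against 7.81%, and 10 of 12, against 12.7%. *Trem2*, a lipid receptor of macrophages and microglia that signals through TYROBP, had 43.5, 1.49, 9.50, and 0.103 TPM in the order GFP-negative, GFP-positive, tdTomato-negative, tdTomato-positive. *Fcgr3*, an IgG receptor that signals through FCER1G, had 71.7, 3.11, 81.7, and 4.89 TPM, and *Syk*, the kinase recruited to phosphorylated ITAMs, had 57.9, 1.18, 39.4, and 0.964. *Trem2* was thus lower in tdTomato-negative than in GFP-negative cells, as C1q was, whereas *Fcgr3* was at similar levels. Other IgG receptors of this list were lower there while *Fcer1g* was not, with *Fcgr1* at 29.4 and 0.0264 TPM and *Fcgr4* at 22.1 and 5.97 TPM in GFP-negative and tdTomato-negative cells. *Clec4e* and *Trem1*, receptors of activated myeloid cells including neutrophils, were higher in tdTomato-negative cells, with 63.2 and 65.1 TPM against 11.1 and 28.1. *Fcer1a*, the IgE-binding chain that pairs with FCER1G on mast cells, was listed at 0 in all 4 libraries. *Ptpn6*, a phosphatase that restrains ITAM signaling, was the highest gene of the list in every library, with 202.4, 26.0, 122.3, and 30.9 TPM.

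The ligands of CSF1R and CX3CR1 were looked at beside 2 related growth factors, *Csf2* and *Csf3*, which are not ligands of these receptors. *Csf1*, the growth factor gene, had 7.70 TPM in GFP-negative, 3.37 in GFP-positive, 34.5 in tdTomato-negative, and 3.13 in tdTomato-positive cells, and was highest in tdTomato-negative cells. *Il34*, the other ligand of CSF1R, was under 1 TPM in all 4 libraries. *Cx3cl1*, which encodes fractalkine, had 10.6, 30.6, 32.5, and 50.3 TPM, and was lowest in GFP-negative cells, where its receptor gene *Cx3cr1* was highest. *Csf2* and *Csf3* reached 2.33 and 2.77 TPM in GFP-positive cells and were listed at or near 0 elsewhere. In the GFP line *Cx3cl1* had a log2 fold change of 1.45 and *Csf1* one of -0.99, and in the tdTomato line they were at 0.61 and -3.11. Of the listed genes with at least 1 TPM, 0 of 4 were lower and 3 were higher in the GFP line (*Cx3cl1*, *Csf2*, and *Csf3*), against 45.0% and 14.2% of all genes, and 1 of 2 was lower and 0 were higher in the tdTomato line, against 23.2% and 17.2%. With a pseudocount of 10, 0 of the 3 were at least 2-fold higher.

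The genes whose 4 values were most like the mean course of the 10 genes were ranked by Euclidean distance of centered log2(TPM + 1) over the 4 libraries, among the 12860 genes on no list that reached 10 TPM somewhere. The nearest were *B3gnt5* (distance 0.12), *Olfr955* (0.24), *Stab1* (0.25), *Olfr1271* (0.31), and *Ccl7* (0.32), followed by *Olfr357*, *Olfr770*, *Slco2b1*, *Olfr190*, and *H2-T10* (up to 0.40). *Stab1*, a scavenger receptor of macrophages and endothelium, had 33.2, 1.18, 7.83, and 1.397 TPM, and *Ccl7*, a monocyte chemokine, had 14.9, 0.0487, 4.37, and 0.148 TPM. Odorant receptor genes made up 5 of the 10, such as *Olfr955* with 12.6, 0, 2.61, and 0 TPM. Among the 10 genes themselves *C1qc* was nearest to their mean course (0.54) and *Tyrobp* farthest (2.94), and 26 other genes were nearer than *C1qc*. With 4 points, a close course is a description of these libraries and does not mark macrophage genes.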

How the data were processed

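RNA-seq was analysed in 4 libraries, 1 for each group, and groups were taken from the sample titles. The deposited values are TPM for 24421 genes named by symbol, in 1 file with 1 column for each library, and 0 columns were left out. The submitters' processing notes list Trimmomatic 0.36, Salmon 1.4.0, and mm10, whereas the methods name Hisat2, Cufflinks, and featureCounts with mm10. The methods give RNeasy extraction and Smart-seq2 libraries, and the labels give FastPure and VAHTS kits. Which applied was not settled here. TPM hold no read counts, so the depth is unknown, and no intervals were given.

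Log2 fold changes used a pseudocount of 1 TPM, the limit was 2-fold, and backgrounds used genes with at least 1 TPM in either library. No p-values were computed. The 10 genes, 3 pathway lists, and 15 marker lists were chosen with earlier results of these data known, so their directions are not independent evidence. The text may name the 10 genes, any list gene, and the 10 genes of most similar course. *Ighm* and *Ly6g*, on the marker lists, were not matched. Promoter windows came from RefSeq and positions from GENCODE M21. In a search of 50-base windows on the transcript strand, which does not find overlap with genes of the opposite strand, only *Cx3cr1* shared sequence with another gene (0.269% of windows). Alternatives were pseudocounts of 0.1 and 10 TPM, a 4-fold limit, other backgrounds, 3 rescalings of the libraries (by the median ratio, without the 24 highest genes, and to mature OSN markers), omission of genes, and values relative to pan-leukocyte markers. Scripts in Python 3.11.15 with NumPy 2.4.6, pandas 2.3.3, and matplotlib 3.10.9 were tested on simulated data.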

Additional observations from a re-analysis of the deposited data

Results flagged for a closer look

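Differences of opposite sign in the 2 lines, each of at least 2-fold, were looked for among the 10 genes, the genes of the pathway, other macrophage, and pan-leukocyte lists, and the medians of all lists. Single genes of the other lists were not searched. Each rests on 1 pair of libraries in each line, and the difference between the lines was not tested. *C1s1*, a protease that joins C1q, had a log2 fold change of 1.14 in the GFP line and -1.09 in the tdTomato line. *Folr2*, a folate receptor of tissue macrophages, was at -1.70 in the GFP line and 3.51 in the tdTomato line, where it was listed at 0 in tdTomato-negative cells and had 10.4 TPM in tdTomato-positive cells. The other macrophage genes listed at 0 or near 0 in tdTomato-positive cells included *Tmem119* and *Trem2*. The list of receptor ligands and related growth factors had a median of 1.59 in the GFP line (4 genes) and -1.25 in the tdTomato line (2 genes). The former includes *Csf2* and *Csf3*, which are not ligands of the receptors here, and the ligand genes *Csf1* (-0.99 and -3.11) and *Cx3cl1* (1.45 and 0.61) each kept one sign in both lines as deposited. Under the scaling to OSN markers *Csf1* was at 1.65 in the GFP line and -2.12 in the tdTomato line. The horizontal basal cell markers, genes of the reserve stem cells of the epithelium, had medians of 2.90 and -2.04. The olfactory ensheathing cell markers, genes of the glia of the olfactory nerve, had medians of -1.26 and 1.23, each over 4 genes that were not the same in both lines, and *Sox10* went against its list in both (2.30 and -1.17).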

How the results depend on the processing

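Each group has 1 library, so the spread between samples is unknown, leaving out a replicate was not possible, and TPM give no depth. No paired analysis was possible because there is a single library per group and nothing was tested. Values are called moved where they changed by over 1.5-fold (0.58 on the log2 scale). Of 40 values of single genes, 40 moved less than that without the 24 highest genes, 38 with a pseudocount of 0.1, 24 with a pseudocount of 10, 22 under the median-ratio scaling, and 10 under the scaling to mature OSN markers.

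In the GFP line, the count of 10 lower genes became 3 under the scaling to OSN markers. Its median became -2.82 with a pseudocount of 10, -2.77 under the median-ratio scaling, and -0.67 under the OSN scaling. The log2 ratio of the summed TPM of the 10 genes was -4.12 as deposited, -3.24 under the median-ratio scaling, and -1.05 under the OSN scaling, and that of C1q was -3.59, -2.70, and -0.52. In the tdTomato line, the median became -1.16 with a pseudocount of 10, -0.95 under the OSN scaling, and -3.22 without the C1q chains. The OSN scaling moved the log2 ratio of the sum from -3.10 to -2.10 and that of C1q from -1.09 to -0.091. Between the positive libraries, the median became -0.69 under the median-ratio scaling and -1.97 under the OSN scaling.

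The complement median in the GFP line became 1.19 under the median-ratio scaling and 3.32 under the OSN scaling, and that in the tdTomato line became 0.59 under the OSN scaling. The median of the ligand and growth factor list in the GFP line was 3.06 and 0.33 with pseudocounts of 0.1 and 10, 2.25 under the median-ratio scaling, and 3.61 under the OSN scaling. In the tdTomato line it was -0.63 with a pseudocount of 10 and -0.28 under the OSN scaling. The median of the ITAM partners was -4.50 and -1.82 with pseudocounts of 0.1 and 10 and -1.39 under the OSN scaling in the GFP line, and -5.29, -1.82, and -2.30 in the tdTomato line.

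Among values past 2-fold, the OSN scaling changed the sign of *Cd68* in the GFP line (0.29) and of *Tyrobp* between the positive libraries (-0.14). Among values within 2-fold, it changed the sign of *C1qb* and *Aif1* in the tdTomato line (0.15 each), of *Fcer1g* between the negative libraries (-0.11), and of *C1qa*, *C1qb*, *C1qc*, and *Fcer1g* between the positive libraries (-1.82, -1.49, -2.15, and -1.83). Taken relative to the pan-leukocyte markers, the GFP line gave 1.5 for *C1qa*, 1.15 for *C1qb*, 1.15 for *C1qc*, 1.013 for *Csf1r*, 0.76 for *Cx3cr1*, 1.44 for *Adgre1*, 2.08 for *Cd68*, 0.19 for *Fcer1g*, and 1.39 for *Aif1*. The tdTomato line gave 3.92 for *C1qa*, 3.50 for *C1qc*, 1.51 for *Csf1r*, 2.56 for *Adgre1*, 1.72 for *Cd68*, 0.72 for *Tyrobp*, 0.60 for *Fcer1g*, 4.12 for *C1qb*, 4.201 for *Cx3cr1*, and 4.89 for *Aif1*. *Tyrobp* in the GFP line was at -1.43. These are differences from the mean change of other leukocyte genes, which was -4.77 and -4.94, so their sign follows from that reference.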

Other observations

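Leukocyte lists other than macrophages held a few genes that did not follow their list. T and NK cell markers were at least 2-fold lower in the positive cells for 10 of 10 genes in both lines (medians -5.07 and -4.96), against 45.0% and 23.2% of all genes, and their sum was 571.6 TPM in GFP-negative, 5.76 in GFP-positive, 464.9 in tdTomato-negative, and 3.99 in tdTomato-positive cells. The medians in the GFP and tdTomato lines were -4.52 and -3.19 for monocyte, -2.54 and -3.42 for dendritic cell, -5.89 and -5.98 for neutrophil, and -5.92 and -4.65 for B cell markers. The neutrophil sum was 1759 TPM in GFP-positive and 291.4 in tdTomato-positive cells, of which *Ltf* (lactoferrin, also made by glands) gave 1691 and 286.2. The B cell sum was 83.4 TPM in GFP-positive and 538.4 in tdTomato-positive cells, of which *Vpreb3* gave 81.8 and 533.2. Of the mast cell markers, *Hdc*, which makes histamine, had 110.0 TPM in GFP-negative, 167.6 in GFP-positive, 137.5 in tdTomato-negative, and 348.1 in tdTomato-positive cells. The median of the list was -1.05 in the GFP line (5 genes) and 0.43 in the tdTomato line (*Hdc* and *Kit* only). In 3 of the libraries, 5 of the 8 listed genes were at 0.

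Most markers of sustentacular cells, Bowman glands, and multiciliated cells were higher in the positive cells of the GFP line, and in the tdTomato line those of sustentacular cells and glands were mixed. The median log2 fold change was 2.49 in the GFP line and 1.08 in the tdTomato line for sustentacular cells, 5.09 and 1.73 for Bowman glands, and 1.91 and 3.45 for multiciliated cells. In the GFP line 9 of 9 sustentacular, 9 of 9 Bowman gland, and 8 of 10 multiciliated markers were at least 2-fold higher and 0 were lower, against 14.2% and 45.0% of all genes. The counts for the tdTomato line were 5 higher and 2 lower, 5 higher and 4 lower, and 9 higher and 0 lower, against 17.2% and 23.2%, with the gland genes *Bpifb3* at -6.76 and *Obp2a* at -5.79. The Bowman gland sum there was 2682 TPM in the negative and 2015 in the positive cells. Endothelial and stromal markers had medians of -1.05 and -0.54, and in the GFP line 5 were lower, such as *Pecam1* (-4.33), and 3 were higher, which were *Col1a1* (2.09), *Col1a2* (1.79), and *Dcn* (1.13). Their part in the C1q values was not tested.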
